A study of Homo sapiens with 5 samples.

Results

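The Hippo pathway and its YAP-TEAD target genes were followed as 33 genes, chosen by symbol, in a deposited table of 58174 genes. All 33 had a row, and 32 had a mean of at least 1 TPM over the libraries and were tested. AXL, a receptor tyrosine kinase gene, was the exception, with 0.0203 to 0.158 TPM. TPM, the transcript abundance unit of the table, scales reads by gene length and then each library to the same total, so levels of different genes can be compared. The values come from 5 RNA sequencing libraries made from Ishikawa, an endometrial carcinoma cell line of human origin. In 3 libraries the cells carried a lentiviral short hairpin RNA that targets LINC00958, a long non-coding RNA (group sh-LINC00958), and in 2 they carried a negative control hairpin (group sh-NC). Both groups were selected with puromycin at 2.5 µg/ml from 72 h after infection. How many hairpins were used, their sequences and the time of harvest are not stated in the labels. The labels name no separate cultures, so every p-value rests on the spread among these 5 alone, and that spread may be technical.

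In the Hippo pathway the kinases MST1 and MST2 (genes STK4 and STK3), held by the scaffold SAV1, phosphorylate the kinases LATS1 and LATS2 and their activators MOB1A and MOB1B. Active LATS phosphorylates the co-activators YAP1 and TAZ (gene WWTR1), which are then kept in the cytoplasm or degraded. When LATS is inactive, YAP1 and TAZ enter the nucleus, bind TEAD transcription factors and switch on genes such as CYR61 and CTGF. Much of this control acts on proteins, which transcript levels do not show.

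LINC00958 itself measured 67.2, 67.1 and 58.4 TPM in sh-LINC00958 and 119 and 137 TPM in sh-NC, so the libraries followed their labels. Depth is unknown, since TPM keeps none, and each library had between 27896 and 29411 genes above 0. EPCAM, the keratin genes KRT8, KRT18 and KRT19, CDH1, PAX8 and MUC1, the 7 epithelial markers, all passed the filter, and KRT18 alone among them passed the test (341, 342 and 343 against 246 and 258 TPM). Nearest to passing were EPCAM (log2 fold change -0.27, limma adjusted p = 0.0660) and PAX8 (-0.20, adjusted p = 0.0873). After removal of the trend with GC content and length, described below, PAX8 passed as lower (-0.38, limma adjusted p = 0.0314). KRT18 still passed as higher in that fit (0.30, adjusted p = 0.0440). The fibroblast gene DCN, the blood genes CD3E and HBB and the endothelial gene KDR were listed at 0 in every library. Summed over their lists, blood markers reached 3.12 to 4.05 TPM in sh-LINC00958 and 2.08 to 3.26 TPM in sh-NC, endothelial markers 4.39 to 5.89 and 6.51 to 6.90 TPM, and fibroblast markers 5.59 to 6.23 and 5.28 to 5.41 TPM. None of these 3 lists had a gene that passed. The genes nearest to it were CDH5 (endothelial, log2 fold change -0.65, adjusted p = 0.0651), PECAM1 (endothelial, -0.15, adjusted p = 0.725), CD68 (blood, 0.50, adjusted p = 0.206) and COL1A1 (fibroblast, 4.33 to 5.23 TPM, 0.12, adjusted p = 0.566). The part of these markers in the results below was not tested. Transcript levels are averages over cells, so fewer cells of a kind and less RNA per cell cannot be told apart.

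Of the 32 tested members, 3 rose in sh-LINC00958 (CYR61, TEAD4 and WWC1), 5 fell (MOB1B, STK4, SAV1, MOB1A and TAOK1) and 24 did not pass. Among all 17049 genes tested, 4.12% rose and 5.68% fell, 9.80% in all, against 25.0% of the members. The members and the lists below were chosen with earlier results of these data known, so such shares are given as a description. A gene passed when limma's moderated test on log2(TPM + 1) gave a two-sided p under 0.05 after Benjamini-Hochberg adjustment over all genes tested. Groups that did not overlap were seen for 10 members higher and 10 lower, 62.5% of those tested, against 49.9% of all genes (24.4% higher and 25.5% lower). The members had a median log2 fold change of 0.09 and all genes 0.0014, so the members as a whole leaned neither way by much. The calls depended on which libraries were fitted. When replicate 1 of sh-LINC00958 or either sh-NC library was left out, 0 members passed in limma (11, 10 and 10 at an unadjusted p under 0.05). Over all genes these fits called 36, 21 and 10 higher and 51, 12 and 6 lower, against 702 and 969 with all 5 libraries. Among members, without sh-LINC00958 replicate 3 only CYR61 and MOB1B passed. Without sh-LINC00958 replicate 2, 2 rose (WWC1 was lost, adjusted p = 0.0512) and 8 fell, with LATS1, STK3 and PTPN14 added. That library was the nearest of its group to the sh-NC mean for 19 of the 32 tested members (59.4%), against 47.7% of all genes tested. It was so for 7 of the 8 called members, and the share among all called genes was not computed. The direction of every called member was the same in each of these fits.

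**Figure D1:**
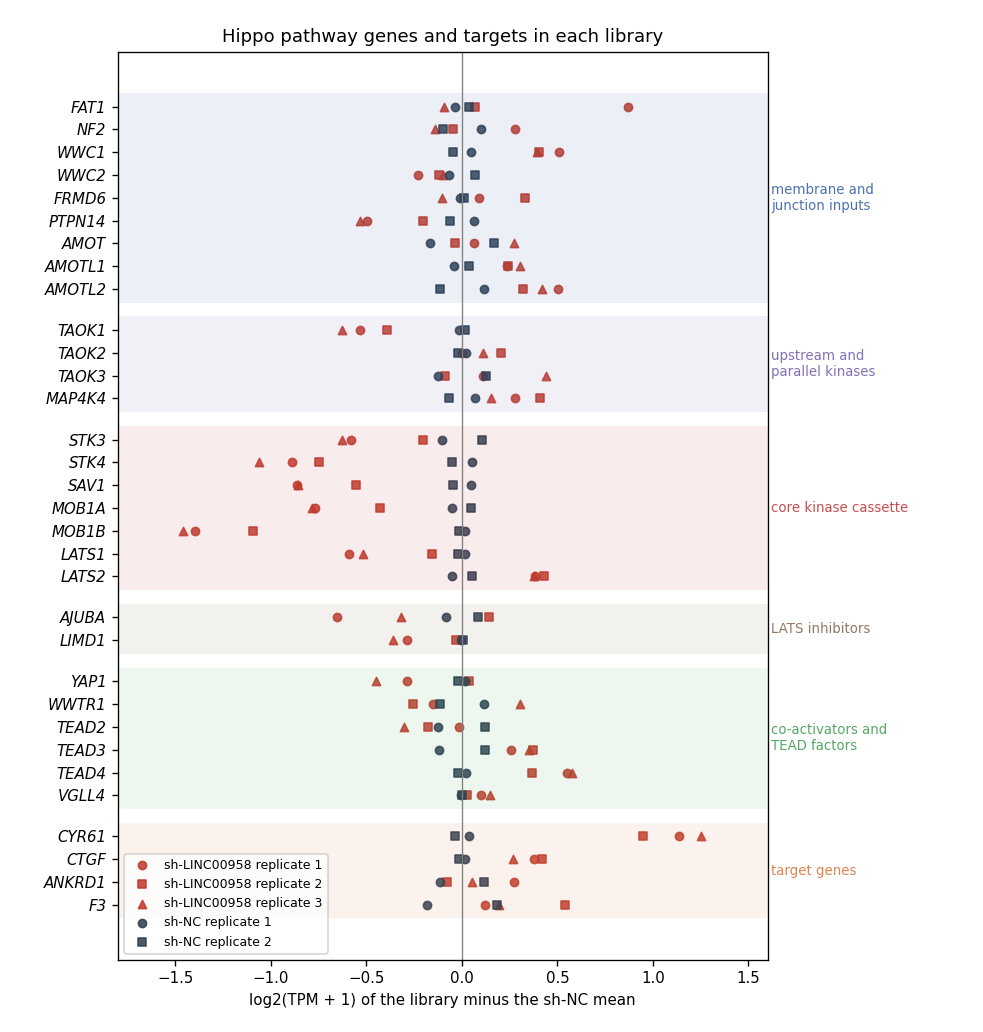
Level of the 32 tested members in each library as log2(TPM + 1) minus the sh-NC mean (horizontal axis), with red marks for sh-LINC00958, dark marks for sh-NC, and shaded bands for roles in the pathway. In the core kinase cassette the red marks of 6 genes lie left of both dark marks and those of LATS2 lie right, while CYR61 lies furthest right.

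Of the 7 genes of the core kinase cassette 4 fell and 0 rose, where 5.68% of all genes fell, and 15.8% of those in the range of low GC content that holds 6 of the 7. STK3 and LATS1 had groups apart in the same direction and did not pass. MOB1B, an activator of LATS (GRCh38 chr4:70902326-71022449), measured 14.4, 18.1 and 13.8 TPM in sh-LINC00958 and 40.2 and 39.2 TPM in sh-NC. Its groups lay far apart, and the mean in sh-LINC00958 was 38.9% of that in sh-NC (15.4 ± 2.31, SD, n = 3, against 39.7 ± 0.680 TPM, SD, n = 2). The fitted log2 fold change was -1.32 ± 0.136 (SE; 95% confidence interval, CI, -1.65 to -0.99; limma adjusted p = 0.0106). STK4, which encodes the kinase MST1 (chr20:44966474-45079959), measured 17.4, 19.3 and 15.3 TPM against 34.4 and 31.8 TPM. Every sh-LINC00958 library was well below both controls, with a log2 fold change of -0.90 ± 0.123 (SE; 95% CI -1.20 to -0.60; limma adjusted p = 0.0183). Over the fits that left out 1 library the log2 fold change of MOB1B ran from -1.43 to -1.25 (adjusted p 0.0150 to 0.0887) and that of STK4 from -0.98 to -0.82 (adjusted p 0.0189 to 0.116). STK4 passed in the fit without sh-LINC00958 replicate 2 only.

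SAV1, the scaffold that pairs with the MST kinases (chr14:50632058-50668331), measured 35.5, 44.2 and 35.7 TPM against 67.7 and 63.4 TPM, a log2 fold change of -0.76 ± 0.122 (SE; limma adjusted p = 0.0254). MOB1A, the more abundant MOB1 gene (chr2:74152528-74178898), measured 98.6, 125.0 and 97.5 TPM against 163 and 175 TPM (log2 fold change -0.66 ± 0.128, SE; limma adjusted p = 0.0352). In both genes sh-LINC00958 replicate 2 was the highest of its group and still lay below the controls. Both were called again without that library and in none of the other fits that left 1 out, where the adjusted p reached 0.135 for SAV1 and 0.174 for MOB1A. Of the exon bases of SAV1, 14.9% lie opposite the gene ATL1, and no source used here states the strand setting, so reads of both cannot be told apart. ATL1 averaged 3.95 ± 0.340 against 4.12 ± 0.883 TPM (SD, n = 3 and 2), far below SAV1 at 38.5 ± 4.98 against 65.6 ± 3.06 TPM.

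STK3, which encodes MST2, did not pass, at 23.0, 30.2 and 22.3 TPM against 32.4 and 37.6 TPM (log2 fold change -0.47, 95% CI -0.86 to -0.08, limma adjusted p = 0.111). LATS1 did not pass either, at 13.8, 19.0 and 14.6 TPM against 21.6 and 21.1 TPM (-0.42, 95% CI -0.80 to -0.05, adjusted p = 0.131). In both, all 3 sh-LINC00958 libraries were below the controls, replicate 2 by the least. LATS2, the paralog of LATS1 and itself a known YAP-TEAD target, had the opposite sign, with 12.6, 13.0 and 12.5 TPM against 9.05 and 9.81 TPM (0.40, 95% CI 0.14 to 0.66, adjusted p = 0.0685). Summed over the 7 genes, the cassette held 215, 269 and 212 TPM in sh-LINC00958 and 368 and 377 TPM in sh-NC, with MOB1A the largest share. The median log2 fold change of the 7 genes was -0.66.

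The upstream stretches of the pair with the largest falls are shown because their base composition differs from that of the transcripts. The sequences are from RefSeq (GRCh38.p14), start 250 bases before the transcription start and stop where GENCODE first annotates a UTR. Lower case runs without capitals hold none of the 3 motifs searched on both strands, which were GGAATG (TEAD), TGANTCA (AP-1) and the SRF CArG box.
MOB1B, chr4:70902119-70902325, plus strand: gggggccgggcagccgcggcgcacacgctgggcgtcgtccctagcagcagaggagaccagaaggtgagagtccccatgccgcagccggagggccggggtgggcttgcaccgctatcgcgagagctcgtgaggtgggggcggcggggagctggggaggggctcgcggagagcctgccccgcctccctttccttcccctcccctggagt
STK4, chr20:44966262-44966473, plus strand: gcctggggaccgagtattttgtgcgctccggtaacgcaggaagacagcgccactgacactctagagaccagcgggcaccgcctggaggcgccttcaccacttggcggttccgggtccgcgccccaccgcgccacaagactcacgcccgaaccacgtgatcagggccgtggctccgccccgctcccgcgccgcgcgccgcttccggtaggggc
Over the full 250 bases the GC content was 72.8% for MOB1B and 70.8% for STK4, while the transcripts of these genes hold 37.8% and 42.8%.

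Of the 4 kinases that feed the cascade from above, 1 passed, where 9.80% of all genes did. TAOK1, a kinase that activates MST (chr17:29390464-29551904), fell, with 27.8, 30.7 and 26.0 TPM against 40.3 and 41.1 TPM (log2 fold change -0.52 ± 0.102, SE; 95% CI -0.77 to -0.27; limma adjusted p = 0.0362). Its groups were clearly apart, but the call was lost without any of the 4 libraries other than sh-LINC00958 replicate 2 (adjusted p up to 0.174). TAOK2 (log2 fold change 0.10, 95% CI -0.12 to 0.33) and TAOK3 (0.15, 95% CI -0.30 to 0.61) had overlapping groups. MAP4K4, which can phosphorylate LATS in parallel to MST, measured 58.6, 64.2 and 53.6 TPM against 50.5 and 45.8 TPM and did not pass (0.28, adjusted p = 0.143).

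Among the 9 genes that bring signals from the membrane and cell junctions, WWC1 alone passed. That is 11.1%, close to the 9.80% of all genes called. It encodes KIBRA, a scaffold that works with NF2 (chr5:168291651-168472303), and measured 30.4, 28.2 and 28.0 TPM against 21.8 and 20.3 TPM (log2 fold change 0.44 ± 0.0943, SE; 95% CI 0.20 to 0.67; limma adjusted p = 0.0443). All 3 sh-LINC00958 libraries were above the controls, but WWC1 was not called in any fit that left out 1 library (adjusted p 0.0512 to 0.202). Its paralog WWC2 measured 16.7, 18.1 and 18.4 TPM against 18.8 and 20.8 TPM (-0.15, 95% CI -0.41 to 0.11). Exons of CLDN22 lie opposite 25.9% of the exon bases of WWC2, so its value is uncertain without a known strand setting.

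The angiomotins bind YAP1 and hold it at junctions and actin. AMOTL2, also a YAP-TEAD target, measured 63.6, 56.0 and 60.0 TPM against 48.4 and 41.1 TPM, and AMOTL1 14.6, 14.6 and 15.3 TPM against 11.9 and 12.6 TPM. For both genes the groups did not overlap, and neither passed (log2 fold changes 0.41 and 0.26, adjusted p = 0.0650 and 0.148). AMOT was low, at 1.88 to 2.91 TPM over all libraries, with overlapping groups. PTPN14, a phosphatase that binds YAP1, measured 13.7, 17 and 13.3 TPM against 20.6 and 18.9 TPM (-0.41, adjusted p = 0.11). NF2, the tumour suppressor merlin (24.2 to 32.6 TPM), and FRMD6, a FERM domain protein gene (7.07 to 9.88 TPM), had overlapping groups and log2 fold changes of 0.03 and 0.10. The giant cadherin gene FAT1 stood out in 1 library, with 44.8 TPM in sh-LINC00958 replicate 1 against 25.4 and 22.5 TPM in the others of its group and 23.5 and 24.8 TPM in sh-NC. Its log2 fold change was 0.28 with all libraries and -0.013 without that one. AJUBA and LIMD1, LIM proteins that inhibit LATS, had log2 fold changes of -0.28 and -0.23 and did not pass (adjusted p = 0.464 and 0.287). LIMD1 measured 15.6, 18.8 and 14.7 TPM against 19.2 and 19.3 TPM. AJUBA varied widely within sh-LINC00958, at 15.3, 27.3 and 19.6 TPM against 23.2 and 26.1 TPM.

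The co-activators themselves did not pass. YAP1 measured 85.7, 108 and 76.6 TPM in sh-LINC00958 and 106 and 104 TPM in sh-NC, so the groups overlapped through sh-LINC00958 replicate 2 (log2 fold change -0.23, 95% CI -0.60 to 0.13, limma adjusted p = 0.339). WWTR1, which encodes TAZ, measured 17.1, 15.8 and 23.8 TPM against 20.7 and 17.5 TPM (-0.03, 95% CI -0.50 to 0.44, adjusted p = 0.922). In each library YAP1 was the more abundant of the pair. Both intervals reach down to about the fold at which TAOK1 passed, so neither gene is shown to be unchanged.

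Of the 3 TEAD factors among the members, which bring YAP1 and TAZ to DNA, TEAD4 (chr12:2959330-3040673) rose. It measured 73.8, 64.9 and 75.1 TPM against 50.8 and 49.5 TPM (log2 fold change 0.50 ± 0.0946, SE; 95% CI 0.26 to 0.73; limma adjusted p = 0.0342). The lowest sh-LINC00958 library was well above the higher control, and the call was kept only without sh-LINC00958 replicate 2 among the fits that left 1 out (adjusted p up to 0.166). TEAD3 measured 26.4, 28.7 and 28.3 TPM against 20.1 and 23.9 TPM and did not pass (0.33, 95% CI 0.06 to 0.60, adjusted p = 0.114). TEAD2 measured 40.3, 36.0 and 32.9 TPM against 37.3 and 44.5 TPM, with overlapping groups (-0.16, adjusted p = 0.427). VGLL4, which competes with YAP1 for TEAD, measured 38.0, 36.1 and 39.2 TPM against 35.3 and 35.4 TPM (0.09, adjusted p = 0.509), and ATG7 and another gene lie opposite 23.7% of its exon bases.

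CYR61 (chr1:85580761-85583962) had the largest rise of any member. This gene encodes a secreted matricellular protein, is a direct target of YAP-TEAD, and is also an immediate early gene. It measured 132, 116 and 143 TPM in sh-LINC00958 and 61.0 and 57.8 TPM in sh-NC. The lowest sh-LINC00958 library was far above both controls, and the ratio of the means was 2.19 (130.0 ± 13.7, SD, n = 3, against 59.4 ± 2.24 TPM, SD, n = 2). Its fitted log2 fold change stood at 1.11 ± 0.108 (SE; 95% CI 0.85 to 1.38; limma adjusted p = 0.00890). Over the fits that left out 1 library it stayed between 1.04 and 1.19, with adjusted p-values of 0.0150 and 0.0338 without replicates 2 and 3 of sh-LINC00958. It missed the threshold without replicate 1 of that group (0.0538) and without either control (0.0731 and 0.0816).

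The other 3 tested target genes did not pass. CTGF, of the same protein family as CYR61, measured 10.3, 10.6 and 9.50 TPM against 7.80 and 7.63 TPM, without overlap (log2 fold change 0.35, 95% CI 0.08 to 0.63, limma adjusted p = 0.101). F3, which encodes tissue factor, measured 48.9, 65.7 and 51.5 TPM against 39.3 and 51.0 TPM (0.29, adjusted p = 0.308). ANKRD1, a muscle ankyrin repeat protein gene, was near the lower limit for testing, at 1.63, 1.06 and 1.26 TPM against 1.01 and 1.35 TPM (0.08, adjusted p = 0.801). The last pair of genes had overlapping groups.

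The region upstream of CTGF is shown because TEAD motifs are clustered there. It comes from RefSeq (GRCh38.p14, gene CCN2) and stops before the first UTR base in GENCODE, with GGAATG in capitals.
CTGF, chr6:131951374-131951622, minus strand: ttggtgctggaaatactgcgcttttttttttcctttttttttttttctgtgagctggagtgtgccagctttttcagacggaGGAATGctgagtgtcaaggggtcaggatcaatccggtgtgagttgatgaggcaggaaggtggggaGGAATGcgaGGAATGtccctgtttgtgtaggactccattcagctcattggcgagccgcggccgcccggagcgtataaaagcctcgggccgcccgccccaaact
The motif occurs 3 times in these bases, and a match is a description, not a site. Promoters of 29 members were in the table, with 45 starts between them, and 9 of the 45 held GGAATG or its reverse complement in the 250 bases before the start. Of all 35116 RefSeq promoters, 11.9% did. Beside CTGF the members with a match were AJUBA, AMOTL2, ANKRD1, AXL, PTPN14, TAOK3, WWC2 and YAP1. AXL was not tested, and none of the others passed. Some of these 250-base windows overlap an annotated UTR, most of all those of AJUBA (250 bases), ANKRD1 (189) and AMOTL2 (147). TGANTCA was found before a start of ANKRD1, F3, LATS1 and MOB1B (4 of 45, against 6.57% of all promoters; that of MOB1B lies outside the bases printed above). The CArG box was in 0 of 45, against 1.16%. CYR61, LIMD1, STK3 and TEAD4 had no entry among these promoters, so they were not searched for any motif.

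**Figure D2:**
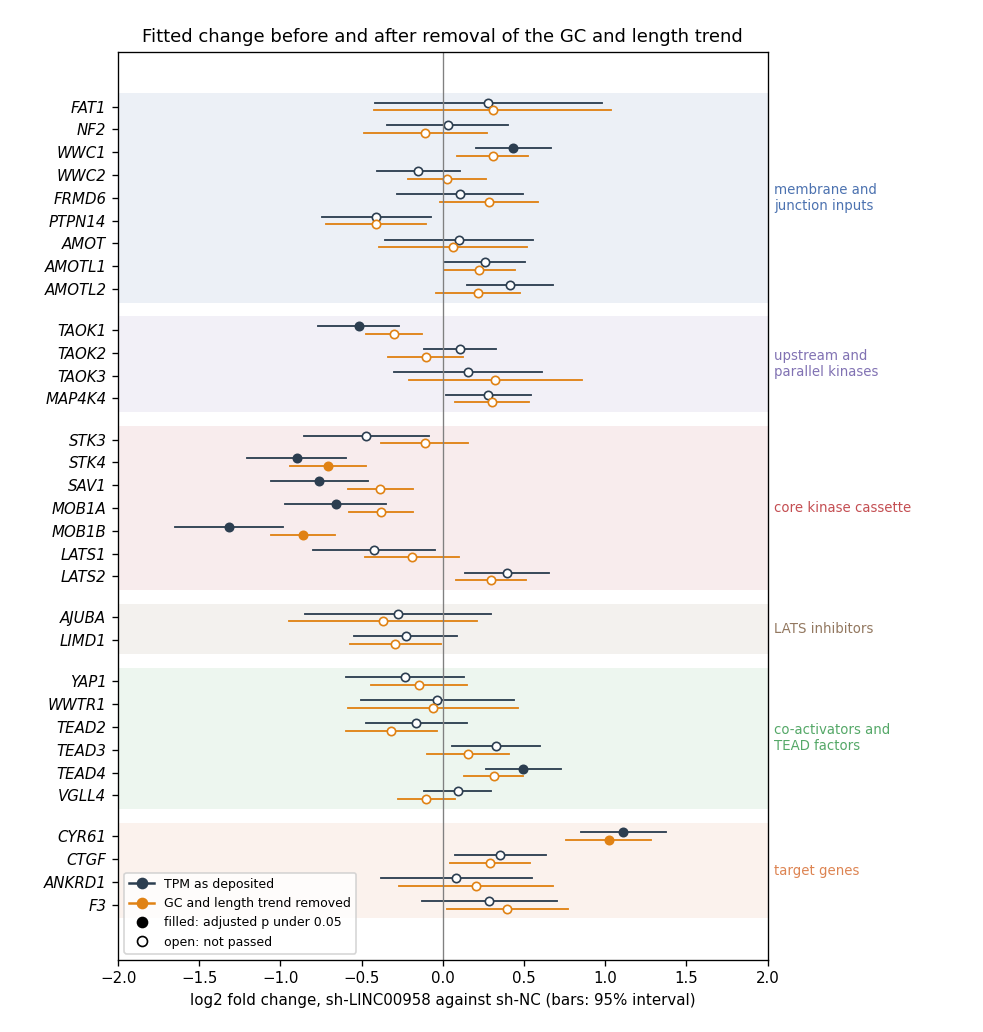
Fitted log2 fold change of each tested member with its 95% CI (horizontal axis), from TPM as deposited (dark) and after removal of the trend with GC content and length (orange), with filled marks for an adjusted p under 0.05. CYR61, MOB1B and STK4 are filled in both colours, and TEAD4, WWC1, SAV1, MOB1A and TAOK1 in dark only.

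Transcript GC content moved with the fold changes. Tested genes were ranked by GC content and cut into 4 equal parts. The one with the lowest content (23.1% to 43.0%) had a median log2 fold change of -0.29, and 15.8% of its genes fell. All 5 members that fell lie there, and it holds 7 members in all (those 5, STK3 and LATS1). In the one with the highest content (56.4% to 86.4%) the median was 0.18 and 8.49% rose, and TEAD4 (62.7%) lies there, while CYR61 (53.0%) and WWC1 (53.7%) lie in the next one, where 4.92% rose. After the trend with GC content and exon length was removed from each library, 1 member rose and 2 fell (9.38% of those tested), against 2.37% and 2.53% of all genes, 4.90% in all. CYR61 (log2 fold change 1.02, adjusted p = 0.0131), MOB1B (-0.86, adjusted p = 0.0113) and STK4 (-0.71, adjusted p = 0.0234) passed. TEAD4 (0.31, adjusted p = 0.0741), WWC1 (0.31, adjusted p = 0.109), SAV1 (-0.38, adjusted p = 0.0611), MOB1A (-0.38, adjusted p = 0.0592) and TAOK1 (-0.30, adjusted p = 0.0732) kept their direction with smaller folds and did not pass. The log2 fold change of STK3 shrank to -0.11 and that of LATS1 to -0.19, while LATS2 was at 0.30. The median of the cassette moved from -0.66 to -0.38.

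**Figure D3:**
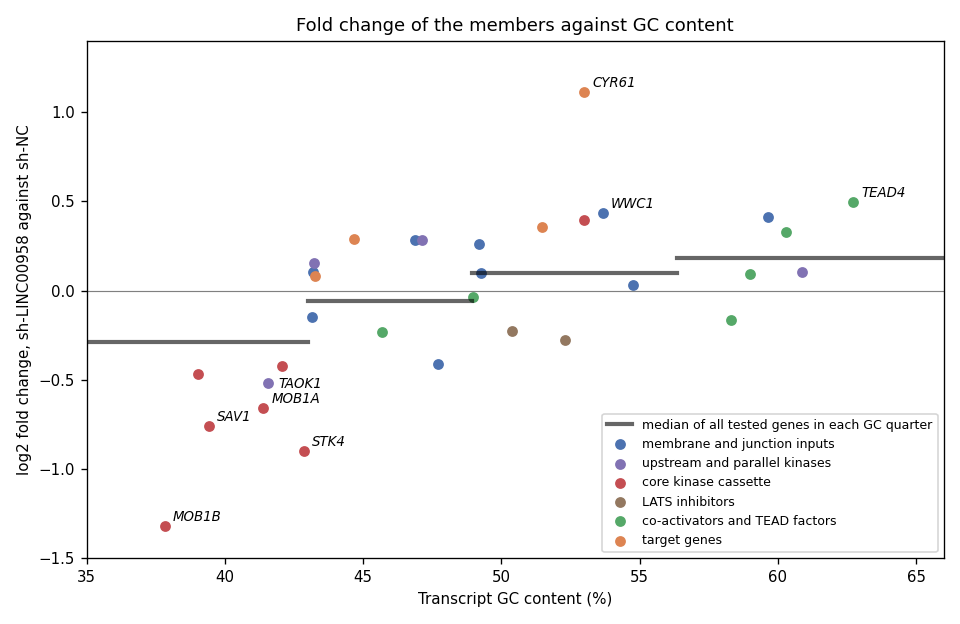
Log2 fold change of each tested member (vertical axis) against the GC content of its transcripts in percent (horizontal axis), coloured by role, with the called members named and black lines at the median of all tested genes in each of 4 equal parts by GC content (the outer ones run past the axis). The 5 members that fell sit at 37.8% to 42.8% GC, below the line at -0.29, and CYR61 sits far above its line.

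Paralogs within the pathway were compared by their log2 ratio within each library, for 9 pairs. With 3 libraries against 2, an exact two-sided permutation test cannot give less than p = 0.1, so no pair could pass. For 6 pairs the groups did not overlap and p was at that limit (0.15 after Benjamini-Hochberg adjustment over the 9 pairs). How often other gene pairs come apart in this way was not tested. Among single genes 49.9% had groups that did not overlap, so the 6 are given as a description only. The log2 ratio of LATS2 to LATS1 was -0.12, -0.52 and -0.20 in sh-LINC00958 and -1.17 and -1.03 in sh-NC, a difference of 0.82. MOB1B to MOB1A stood at -2.69, -2.72 and -2.74 against -1.99 and -2.13 (difference -0.66), the tightest of the pairs within sh-LINC00958. The differences were 0.76 for CYR61 to CTGF, -0.43 for STK4 to STK3, -0.59 for WWC2 to WWC1 and -0.62 for TAOK1 to TAOK2. With GC content and length taken out, the first 4 of these pairs stayed at an exact p = 0.1 (differences 0.49, -0.48, 0.73 and -0.59), and WWC2 to WWC1 (-0.28) and TAOK1 to TAOK2 (-0.19) went to p = 0.2 in the same test, with groups that still did not overlap. YAP1 to WWTR1 (difference -0.20, exact permutation p = 0.7), AMOTL2 to AMOTL1 (0.15, p = 0.5) and TEAD4 to TEAD3 (0.17, p = 0.4) had overlapping groups. No more than 4.51% of the 50-base stretches of any member's transcripts occur in another gene's transcripts, and read exchange within a pair was not tested.

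**Figure D4:**
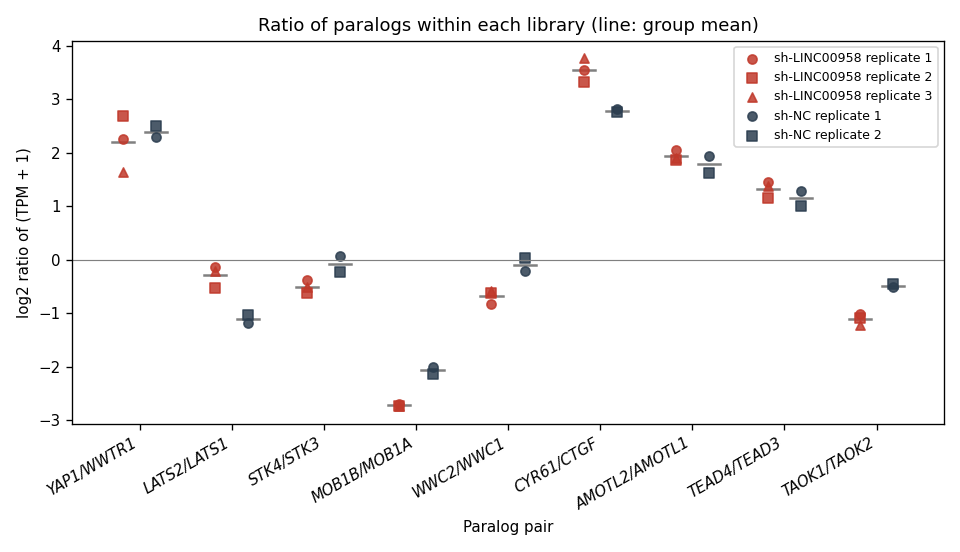
Log2 ratio of (TPM + 1) between 2 paralogs (vertical axis) in each library, for 9 pairs, with red marks for sh-LINC00958, dark marks for sh-NC and grey lines for group means. Red and dark marks are apart for 6 pairs, and MOB1B/MOB1A drops from about -2.06 to -2.72.

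Beyond the members, 71 other genes of the pathway were looked up, and 63 had enough signal to be tested. Of these 4 rose and 7 fell (17.5%, against 9.80% of all genes), and their median log2 fold change was -0.02. Lower were MOB4 (log2 fold change -1.09), STRN (-0.55) and FGFR1OP2 (-0.51), all parts of the STRIPAK phosphatase complex that opposes MST, as well as PARD6B (-0.91) and PRKCI (-0.91), the PAR6 and atypical protein kinase C of the apical polarity complex. MAP4K5 (-0.58), a kinase related to MAP4K4, and RASSF3 (-0.46) also fell. MOB4 measured 26.2 ± 3.79 against 56.7 ± 3.76 TPM, and PARD6B 11.3 ± 0.951 against 22.1 ± 0.936 TPM (SD, n = 3 and 2). Higher were DLG5 (0.77) and LLGL2 (0.43), polarity scaffolds, RASSF1 (0.69), which binds the MST kinases, and MINK1 (0.43), another MAP4K family kinase. Nearest to passing were PPP2CA (-0.35, limma adjusted p = 0.0558), the phosphatase subunit of STRIPAK, and the 14-3-3 gene YWHAZ (-0.67, adjusted p = 0.0587). With GC content and length taken out, RASSF1 (0.51), MOB4 (-0.55), PARD6B (-0.62) and RASSF3 (-0.44) still passed and the other 7 did not. That left 6.35% of the 63 called, close to the 4.90% of all genes in the same fit. All 11 calls were lost in each of the fits that left out 1 library other than sh-LINC00958 replicate 2.

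Other genes known as YAP-TEAD targets gave no call. Of 24 looked up, 18 were tested and 0 passed in limma, and 1 passed with quantile normalization. An unadjusted limma p under 0.05 was seen for 5 of the 18 (4 higher and 1 lower), against 5230 of all 17049 genes. The 1 lower was TGFBR2, with the largest fold of the 18 (log2 fold change -1.23, adjusted p = 0.0825). It measured 30.2, 34.3 and 14.3 TPM in sh-LINC00958 and 56.8 and 61.6 TPM in sh-NC. The median log2 fold change of the 18 was 0.10. NEDD9, a focal adhesion scaffold gene (32.3 ± 2.33 against 24.8 ± 0.147 TPM, SD, n = 3 and 2; log2 fold change 0.36, adjusted p = 0.0704), and MYOF, which encodes myoferlin (0.45, adjusted p = 0.0759), had the smallest p-values. Of 22 immediate early genes 17 were tested and 6 rose, namely FOS (1.16), JUN (1.31), FOSL1 (1.58), JUND (0.72), IER3 (0.84) and SRF (0.53). Over all genes 4.12% rose, and 8.49% in the part with the highest GC content, where all 6 lie. This list too was chosen with earlier results of these data known, so its share is a description only. With GC content and length taken out 4 of the 6 passed, where 2.37% of all genes rose. JUND (adjusted p = 0.0740) and SRF (adjusted p = 0.0824) did not. Groups of the 17 did not overlap for 9 higher and 2 lower (JUNB and MCL1), against 24.4% and 25.5% of all genes. JUNB had a log2 fold change of -0.20 (limma adjusted p = 0.261). With GC content and length taken out it was at -0.38 (limma adjusted p = 0.0741). From TPM as deposited, nearest to passing were FOSL2 (0.44, adjusted p = 0.0906) and ATF3 (0.76, adjusted p = 0.252), and 0 were called lower. Without replicate 1 of sh-LINC00958 or either control 0 of these were called, and 3 without replicate 3. CYR61 belongs to both classes, and the part of either in its rise was not tested.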

How the data were processed

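Gene TPM values deposited by the authors were used as they stand, with a column for each library. Tools named in the submitters' processing notes are FastQC 0.11.2, Trimmomatic 0.36, HISAT2 2.0 and StringTie 1.3.3b, and the build is GRCh38. Not given in the sources used here are the annotation release and whether strand was used. TPM makes each value relative to its library's other RNAs.

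Groups were compared with limma 3.58.1 in R 4.3.3 (eBayes with a mean-variance trend, no block) on log2(TPM + 1), after a filter of mean TPM of at least 1. Fold changes on this scale understate the change of low genes. GC content and exon length came from GENCODE 29, which held 57836 of the 58174 IDs. Their trend was removed by loess (span 0.3, degree 2). Motifs were searched in RefSeq promoters. The members and lists were chosen with earlier results of these data known. All members are accounted for, and from other lists each gene that passed and the 2 nearest to passing are named. Alternatives covered pseudocount, filter, scaling, variance model, the trend, a block and leaving out each library.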

Additional observations from a re-analysis of the deposited data

How the results depend on the processing

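Over 15 alternatives each, the 8 called members never changed sign, keeping the call in 67 of 120 fits and losing it in 53. Pseudocounts of 0.1 and 5, a higher filter (mean TPM of 5), quantile normalization, median-ratio scaling and robust eBayes kept 3 members higher and 5 lower. With no filter (more genes tested) these were 1 and 2, without the limma trend 1 and 3, and with the GC and length trend removed 1 and 2. Leaving out 1 library gave 0 to 2 higher and 0 to 8 lower. Other Hippo genes, 4 higher and 7 lower, gave 1 and 5 with no filter, 2 and 4 without the trend, 1 and 3 with the GC and length trend removed, and 0 to 6 and 0 to 11 without 1 library. Other YAP-TEAD targets gave 1 higher with quantile normalization, and 0 higher and 0 to 1 lower (TGFBR2, without sh-LINC00958 replicate 3). Immediate early genes, 6 higher, gave 2 with no filter, 5 without the trend, 4 with the GC and length trend removed and 0 to 6 without 1 library.

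Over all genes, 702 higher and 969 lower became 207 and 269 with no filter, 371 and 518 without the trend, 404 and 431 with the GC and length trend removed, and 10 to 904 and 6 to 1486 without 1 library (lowest without sh-NC replicate 2, highest without sh-LINC00958 replicate 2). LINC00958, at a log2 fold change of -0.99 (limma adjusted p = 0.0119), ranged from -1.09 to -0.89 without 1 library. The silenced gene itself passed without sh-LINC00958 replicate 2 or 3 (limma adjusted p = 0.0189 and 0.0385). It missed the threshold without replicate 1 of that group (0.0545). Numbers 1 and 2 occur in both groups but nothing pairs them, and deviations of same-numbered libraries correlated at 0.0013 and 0.050. With the replicate block, which drops sh-LINC00958 replicate 3, limma called 0 genes higher and 2 lower, 0 members (15 at an unadjusted p under 0.05), 0 other Hippo genes and 0 immediate early genes, and LINC00958 was at -0.92 and not called.

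Signs turned for 9 members, all uncalled. With the GC and length trend removed these were NF2 (-0.11), WWC2 (0.026), VGLL4 (-0.10) and TAOK2 (-0.11), and with quantile normalization WWTR1 (0.0077). Without 1 library they were WWTR1 (-0.20 to 0.083), NF2 (-0.092 to 0.13), AMOT (-0.069 to 0.27), ANKRD1 (-0.031 to 0.20), FAT1 (-0.013 to 0.47) and FRMD6 (-0.0069 to 0.21). Of 72 alternative paralog differences, 11 moved by more than the SD between libraries. The cause of these changes was not tested. Depth is unknown, so no counting error can be given for low genes such as AXL and ANKRD1.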
